A study of Mus musculus with 6 samples.

Results

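This account covers 60 cell cycle and DNA replication genes among the 12830 genes of a bulk RNA sequencing table. The 60 were taken by gene symbol from a list written with earlier results of these data known. All 60 were found in the table, each as 1 row. By role they comprised 28 genes of the G1/S transition and DNA replication, 26 genes of G2 and mitosis, 3 D-type cyclins and 3 inhibitors of cyclin-dependent kinases. The RNA came from primary bone marrow stromal cells (BMSCs), plastic-adherent cells of marrow that include progenitors of bone and fat. All libraries carry the labels osteogenic induction and 2 day. Per the series description the mice were 8 weeks old. The 3 CKO libraries carried the floxed Rras2 alleles together with Prx1, and the 3 Rras2FF libraries carried the floxed alleles without it. Prx1 regulatory sequence is widely used to drive Cre recombinase in limb mesenchyme. The labels do not say whether libraries of a group came from separate or pooled animals, so p-values measure the spread between these libraries, which may be technical.

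Cells enter the cycle when D-type cyclins, partnered with CDK4 or CDK6, phosphorylate the retinoblastoma protein and release E2F factors. E2F factors then switch on genes that license and copy DNA, among them the Mcm helicase, the clamp PCNA and the enzymes that make deoxynucleotides. Later a second wave of genes, driven by B-MYB and FOXM1, supplies the kinases, motors and checkpoint proteins of mitosis. CDK inhibitors hold the cyclin-kinase pairs in check. In marrow stroma, division of progenitors precedes osteoblast maturation.

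Rras2, the targeted gene, had 26.7, 28.98 and 26.8 CPM in CKO, against 49.7, 50.1 and 44.7 CPM in Rras2FF (replicates 1, 2 and 3 in that order, as in all such lists here). CPM are counts scaled to library size with TMM factors. Summed counts over the listed genes ran from 31934714 to 37561452 per library. The stromal markers were present, with all 10 of 10 listed, but so were all 12 of 12 macrophage markers. Their summed level was 25454 to 26224 CPM in CKO and 23397 to 24737 CPM in Rras2FF. Stromal sums were 15764 to 17962 CPM in CKO and 20468 to 21466 CPM in Rras2FF. The lower stromal sum in CKO came with Col1a1 and Col1a2 (means of 5427 and 4949 CPM in CKO, 8159 and 6717 CPM in Rras2FF). Of the 10 stromal markers 8 had negative log2 fold changes. The 2 positive ones were Lepr and Cxcl12, the latter with means of 4838 CPM in CKO and 3483 CPM in Rras2FF. The stromal sum is thus no measure of the number of stromal cells. Lyz2, a macrophage lysozyme, stood at 11406 FPKM over the 6 libraries and Col1a1, a chain of type I collagen, at 1045 FPKM (the authors' fragment counts scaled to gene length and library size). The cultures were thus mixtures by RNA, and the cell cycle transcripts cannot be assigned to stromal or blood-derived cells. In such bulk RNA, fewer dividing cells and less RNA per dividing cell cannot be told apart.

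Few cell cycle transcripts passed the test between CKO and Rras2FF. Of the 60 genes 3 fell and 0 rose (quasi-likelihood test of edgeR, with p adjusted by Benjamini and Hochberg's method over all 12830 genes and a threshold of 0.05). The 3 were Ccnd2, a D-type cyclin, and Mcm10 and Mcm5, which act in the start of DNA replication. At an unadjusted p below 0.05, 17 were lower (28.3%, against 8.81% of all genes) and 1 was higher (1.67%, against 8.54% of all genes). The share called, 5%, was near the 4.84% of all genes called in either direction, and 2.74% of all genes were called lower. An adjusted p below 0.05 was given for 5 of the 60 in the authors' deposited table, all of them lower, and for 6.61% of all genes. In that deposited table of the authors they were Ccnd2, Mcm10, Mcm5, Mcm6 and Cdkn1a, the last of which encodes the CDK inhibitor p21. A DESeq2 fit of the deposited counts called the same 848 genes as the authors' deposited table, so a DESeq2 call given here is the same result as theirs and adds no second support.

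The direction was shared more widely than the calls. Log2 fold changes (CKO over Rras2FF) were negative for 55 of the 60 genes, and for 49.8% of all genes. The median was -0.088 over the 60 genes and 0.00058 over all genes. Groups did not overlap for 18 of the 60. In 17 of these, which is 28.3% of the list, every CKO library lay below every Rras2FF library, as for 11.2% of all genes. In 1 of them, Cdkn1c, every CKO library lay above, as for 11.3% of all genes. Genes of 1 programme vary together from library to library, so these 60 directions are not 60 separate observations. The list was also chosen with earlier results of these data known, so its shares beside those of all genes are descriptions and no test.

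**Figure D1:**
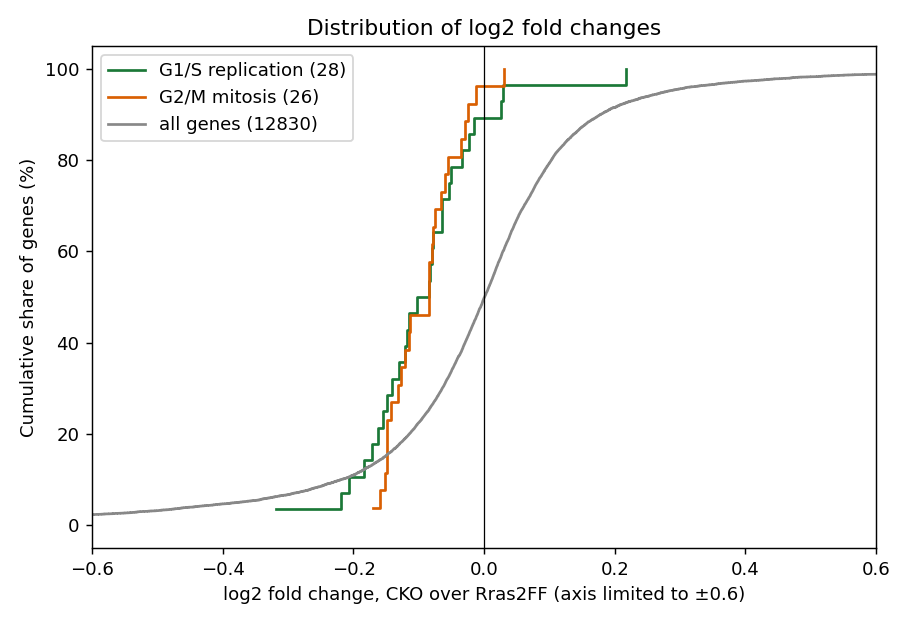
Cumulative share of genes (percent, y axis) against log2 fold change, CKO over Rras2FF (x axis), for the 28 G1/S replication genes, the 26 G2/M mitosis genes and all 12830 genes. Through the middle and upper range both cell cycle curves lie left of the curve for all genes, with medians of -0.094 and -0.085, while at the low end the curve for all genes, which is wider, crosses them.

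Of the D-type cyclins Ccnd2 was the one that passed. Ccnd2 encodes cyclin D2, which couples mitogen signals to CDK4 and CDK6. It had 131, 117 and 108 CPM in CKO, against 161, 162 and 157 CPM in Rras2FF. All 3 CKO libraries were below all 3 Rras2FF libraries, and the CKO libraries were more spread. The means were 119 ± 11.7 CPM in CKO and 160.3 ± 2.51 CPM in Rras2FF (SD, n = 3 each, log2 fold change -0.43, SE 0.0606, edgeR adjusted p = 0.00116). That is 1.35-fold lower in CKO, with a 95% interval of the log2 fold change from -0.56 to -0.30. The call held in each of the 13 other fits, including those without any 1 library, where the adjusted p was at most 0.0219. Ccnd2 maps to the minus strand of mm10 chromosome 6, between bases 127125162 and 127152193, and its exons share 372 and 368 bases with 2 antisense genes on the opposite strand. Whether the counting used strand is not given in the sources used here, so reads of such partners cannot be told apart.

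Ccnd1, which encodes cyclin D1, was the D-type cyclin of highest level per length, at 88.9 ± 3.14 FPKM in CKO and 91.2 ± 2.39 FPKM in Rras2FF (SD, n = 3 each). Its counts were 356, 380.0 and 363 CPM in CKO, against 386, 374 and 358 CPM in Rras2FF, and the groups overlapped (log2 fold change -0.025, SE 0.0452, edgeR adjusted p = 0.838). Its 95% interval, -0.12 to 0.072, excluded a change of the size seen for Ccnd2. Ccnd3, which encodes cyclin D3, had 75.02, 72.7 and 71.1 CPM in CKO, against 79.2, 78.9 and 74.99 CPM in Rras2FF, and CKO replicate 1 met Rras2FF replicate 3 (log2 fold change -0.091, SE 0.0501, edgeR adjusted p = 0.382). Of the summed FPKM of the 3 cyclins, Ccnd2 made up 12.1 ± 1.40% in CKO and 15.3 ± 0.390% in Rras2FF (SD, n = 3 each). Ccnd1 made up 61.9 ± 0.496% in CKO and 59.7 ± 0.264% in Rras2FF. These shares are bound together, since they add up within a library. Ccnd1 shares 1100 exon bases with LTO1 and Ccnd3 shares 361 with Bysl, both on the opposite strand. The counts of these cyclins are thus uncertain as well.

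**Figure D2:**
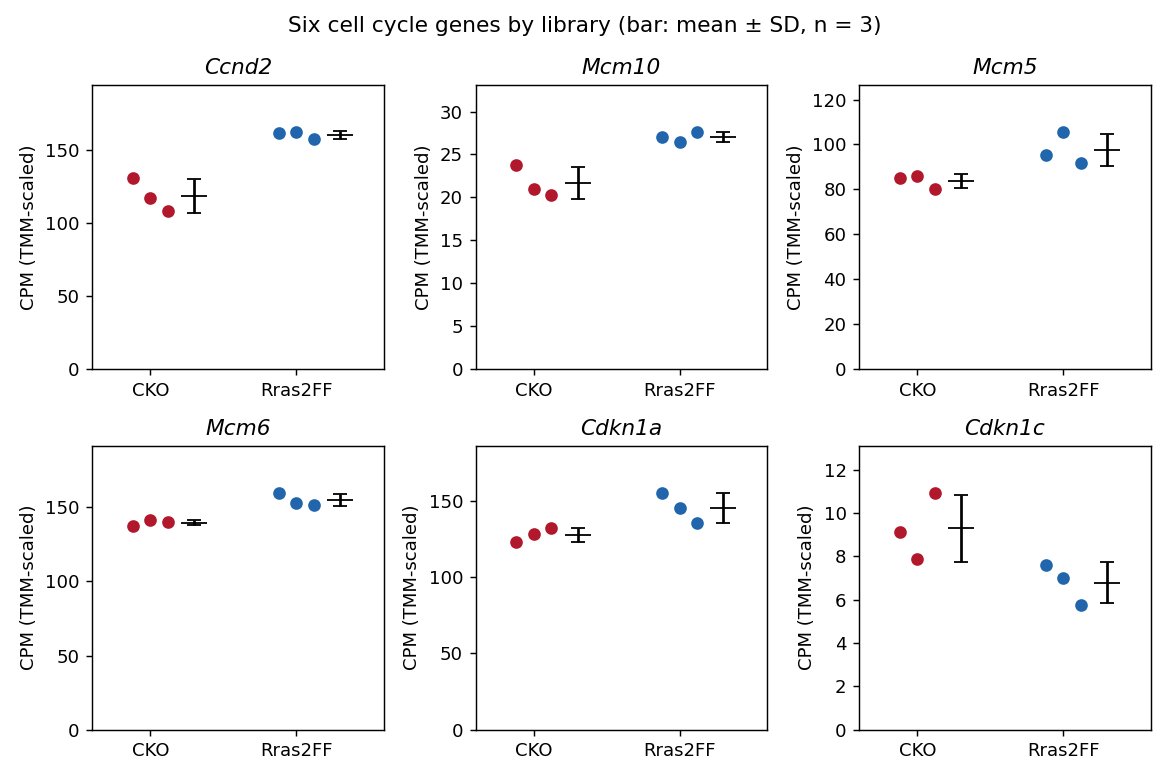
TMM-scaled CPM (y axis, from 0) in each library for Ccnd2, Mcm10, Mcm5, Mcm6, Cdkn1a and Cdkn1c, CKO left and Rras2FF right, with mean ± SD beside the points (n = 3 each). In the first 5 panels every CKO point is below every Rras2FF point, and in the Cdkn1c panel every CKO point is above.

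None of the 3 CDK inhibitors passed the edgeR test (0 called, 1 by DESeq2 and 0 by limma-voom, against 4.84%, 6.61% and 5.04% of all genes). The groups did not overlap for any of them, with CKO below in 2 and above in 1. Over all genes 11.2% had every CKO library below and 11.3% had every CKO library above. At an unadjusted p below 0.05 (edgeR), 2 were lower and 1 was higher, against 8.81% and 8.54% of all genes. Cdkn1a, a p53 target whose product p21 restrains CDK activity, had 123, 128 and 132 CPM in CKO, against 155, 145 and 136 CPM in Rras2FF. The lowest Rras2FF library, replicate 3, was close to the highest CKO library. It missed the threshold (log2 fold change -0.18, SE 0.0525, edgeR adjusted p = 0.0609). DESeq2 called it (adjusted p = 0.0321), and edgeR called it without Rras2FF replicate 3 (0.0437). Cdkn2c encodes p18, an inhibitor of CDK4 and CDK6. It had 55.9, 57.7 and 55.96 CPM in CKO, against 59.6, 66.6 and 62.5 CPM in Rras2FF, without overlap (log2 fold change -0.15, SE 0.0575, edgeR adjusted p = 0.168).

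Cdkn1c, the imprinted gene of the inhibitor p57, had the largest positive value of the 60. Its level was low, at 4.90 ± 0.781 FPKM in CKO and 3.76 ± 0.427 FPKM in Rras2FF (SD, n = 3 each). It had 9.12, 7.86 and 10.9 CPM in CKO, against 7.61, 7.0 and 5.77 CPM in Rras2FF. The gap between the groups was small beside the spread inside them. The difference did not pass (log2 fold change 0.45, SE 0.147, edgeR adjusted p = 0.109), and the 95% interval ran from 0.14 to 0.77. An antisense gene shares 625 exon bases with Cdkn1c.

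Among the 28 G1/S replication genes 2 fell and 0 rose, and 25 had negative log2 fold changes. The share called was 7.14%, against 4.84% of all genes called in either direction and 2.74% called lower. At an unadjusted p below 0.05 (edgeR), 8 were lower (28.6%, against 8.81% of all genes) and 0 were higher. Every CKO library lay below every Rras2FF library for 10 of them (35.7%, against 11.2% of all genes). Mcm10, a factor that helps turn the loaded helicase into a moving fork, had 23.7, 20.97 and 20.3 CPM in CKO, against 27.00, 26.5 and 27.6 CPM in Rras2FF. CKO replicate 1 was the highest CKO library and still lay below the Rras2FF libraries, which were close together. The means were 21.7 ± 1.83 CPM in CKO and 27.02 ± 0.552 CPM in Rras2FF (SD, n = 3 each, log2 fold change -0.32, SE 0.0773, edgeR adjusted p = 0.0287). The call ended when CKO replicate 2 (adjusted p = 0.120) or CKO replicate 3 (0.141) was left out, and likewise without Rras2FF replicate 1, 2 or 3 (0.0772, 0.102 and 0.107). Mcm10 maps to the minus strand of mm10 chromosome 2, between bases 4989714 and 5012791.

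Mcm5 is 1 of 6 subunits of the ring-shaped helicase that unwinds DNA at the fork, and it was the subunit that passed. It had 85.3, 85.8 and 80.3 CPM in CKO, against 95.3, 105 and 91.9 CPM in Rras2FF. Rras2FF replicate 2 was the highest library, and all CKO libraries were below all Rras2FF libraries. The means were 83.8 ± 3.01 CPM in CKO and 97.5 ± 7.04 CPM in Rras2FF (SD, n = 3 each, log2 fold change -0.22, SE 0.0567, edgeR adjusted p = 0.0394). The call ended when CKO replicate 2 (adjusted p = 0.0951) or CKO replicate 3 (0.179) was left out, and likewise without Rras2FF replicate 1 or 2 (0.0614 and 0.263). Mcm5 maps to the plus strand of mm10 chromosome 8, between bases 75109569 and 75128439.

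The other subunits of the ring had the same sign. Over all 6 subunits, Mcm2 to Mcm7, log2 fold changes ran from -0.22 to -0.065 with a median of -0.12. In 5 of the 6 (83.3%, against 11.2% of all genes) every CKO library lay below every Rras2FF library. As for the whole list, these are not separate observations. Mcm6 had 137, 141 and 140.3 CPM in CKO, against 159.7, 153 and 152 CPM in Rras2FF (log2 fold change -0.15, SE 0.0420, edgeR adjusted p = 0.0600). DESeq2 called it (adjusted p = 0.0412). Mcm4 had 94.2, 94.2 and 88.1 CPM in CKO, against 99.8, 102 and 99.1 CPM in Rras2FF (log2 fold change -0.12, edgeR adjusted p = 0.189). In both genes the groups did not overlap. Mcm3 had 96.7, 85.9 and 92.9 CPM in CKO, against 97.2, 104 and 97.7 CPM in Rras2FF, so that CKO replicate 1 almost reached Rras2FF replicate 1. Mcm7 had 84.5, 84.6 and 88.5 CPM in CKO, against 91.2, 91.7 and 88.95 CPM in Rras2FF, again with CKO below and a narrow gap. Mcm2 was the subunit whose groups overlapped, with 60.03, 65.9 and 58.3 CPM in CKO, against 62.2, 69.2 and 61.1 CPM in Rras2FF. On the FPKM scale the levels of the subunits ran from 17.0 for Mcm2 to 40.8 for Mcm6. Mcm7 shares exon bases with Ap4m1 and Cops6 on the opposite strand.

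Beyond the helicase, Uhrf1, Rpa2, Pold1 and Prim1 had groups that did not overlap, without passing the test. Uhrf1, which recruits the maintenance DNA methyltransferase to new DNA, had 85.5, 82.8 and 77.96 CPM in CKO, against 91.4, 97.2 and 86.99 CPM in Rras2FF (log2 fold change -0.16, edgeR adjusted p = 0.126). It passed without CKO replicate 1 (adjusted p = 0.0439). Rpa2, a subunit of the single-strand binding protein, had 30.1, 31.5 and 29.9 CPM in CKO, against 34.3, 35.5 and 31.98 CPM in Rras2FF. Pold1, the catalytic subunit of polymerase delta, had 34.1, 35.6 and 33.2 CPM in CKO, against 35.8, 39.6 and 37.2 CPM in Rras2FF. Prim1, the primase subunit that starts each strand, had 16.1, 18.3 and 16.7 CPM in CKO, against 18.7, 18.8 and 18.9 CPM in Rras2FF. For these 4 genes log2 fold changes lay between -0.16 and -0.13, and CKO replicate 2 came nearest to the Rras2FF libraries in Rpa2, Pold1 and Prim1.

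Pcna and Rrm1, the replication genes of highest level per length, had log2 fold changes near 0. Pcna, the sliding clamp, stood highest per length of all 60 genes, at 146 ± 7.11 FPKM in CKO and 149.8 ± 5.08 FPKM in Rras2FF (SD, n = 3 each). It had 230.4, 254 and 248 CPM in CKO, against 244, 253 and 247 CPM in Rras2FF, with a 95% interval of the log2 fold change from -0.12 to 0.076. CKO replicate 1 was the lowest library, and the other CKO libraries lay among or above those of Rras2FF. Rrm1, the large subunit of ribonucleotide reductase, had 192, 216 and 206 CPM in CKO, against 201, 213 and 216 CPM in Rras2FF (log2 fold change -0.034), and there too CKO replicate 1 was lowest. Rrm2, its small subunit, Tyms, thymidylate synthase, and Dut, the dUTPase, had log2 fold changes of -0.079, 0.026 and -0.053. None of these enzymes of deoxynucleotide supply passed (edgeR adjusted p from 0.629 to 0.909).

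Neither Cdc6 and Cdt1 nor any gene of clamp loading, the polymerases or the E cyclins passed. The licensing factors Cdc6 and Cdt1 had log2 fold changes of -0.10 and -0.064, and the clamp loader subunits Rfc2, Rfc3 and Rfc4 had 0.029, -0.085 and -0.083. The polymerase subunits Pola1 and Pole had -0.12 and -0.18. Ccne1 and Ccne2, the E cyclins that pair with CDK2 at the G1/S border, had -0.21 and -0.015, and the transcription factor gene E2f1 had -0.051. Gins1 and Gins2, subunits of the same GINS complex of the active helicase, had opposite signs, -0.17 and 0.22. Gins2 had 22.97, 28.1 and 20.7 CPM in CKO, against 19.97, 20.2 and 21.6 CPM in Rras2FF, with CKO replicate 2 far above the rest and CKO replicate 3 among the Rras2FF libraries. Gins2 shares 2758 exon bases with Gse1 on the opposite strand, so its count is uncertain. Over all these genes the edgeR adjusted p ran from 0.213 to 0.953.

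**Figure D3:**
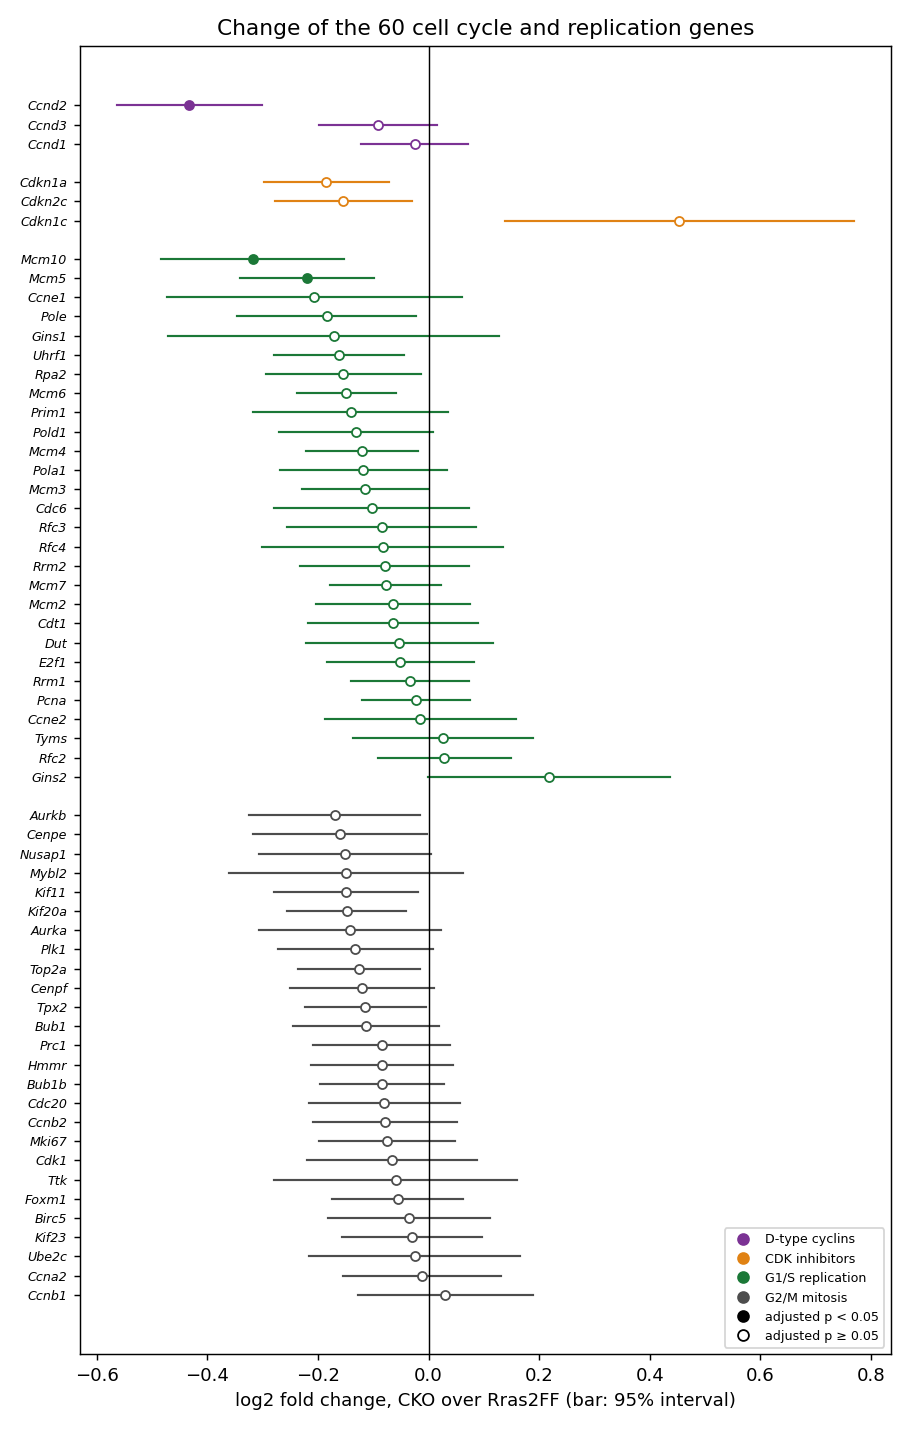
Log2 fold change of each of the 60 genes, CKO over Rras2FF (x axis), with 95% intervals as bars and genes grouped by role down the page. Filled points mark the 3 genes that passed, Ccnd2, Mcm10 and Mcm5, and the points of 55 genes lie left of 0.

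No G2/M gene passed. Of the 26, 0 were called by edgeR, DESeq2 or limma-voom, which called 4.84%, 6.61% and 5.04% of all genes. At an unadjusted p below 0.05 (edgeR), 6 were lower (23.1%, against 8.81% of all genes). Log2 fold changes ran from -0.17 to 0.03 with a median of -0.085, and all but that of Ccnb1, a mitotic B cyclin, were negative. The 95% intervals lay between -0.361 and 0.188, so a change of 0.5 on the log2 scale was outside the interval of each of the 26 genes. Groups did not overlap for 4 of them, all with CKO below, and this share of 15.4% was near the 11.2% of all genes.

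Kif20a, a kinesin of the central spindle, had the smallest p of the mitotic genes, with 59.3, 59.7 and 59.3 CPM in CKO, against 65.5, 66.2 and 65.9 CPM in Rras2FF. The libraries of each group were close together, and the groups did not overlap (log2 fold change -0.15, SE 0.0506, edgeR adjusted p = 0.127). Its exons share 1271 bases with Cdc23 on the opposite strand. Kif11, the kinesin that pushes spindle poles apart, had 71.8, 83.5 and 84.9 CPM in CKO, against 87.6, 88.3 and 90.4 CPM in Rras2FF, with CKO replicate 1 clearly lowest. Tpx2, which activates Aurora A on the spindle, had 81.9, 87.1 and 87.8 CPM in CKO, against 88.6, 96.1 and 93.4 CPM in Rras2FF. Bub1, a checkpoint kinase of the kinetochore, had 33.9, 36.7 and 34.6 CPM in CKO, against 37.4, 37.9 and 38.5 CPM in Rras2FF. In these 4 genes all CKO libraries were below, and log2 fold changes ran from -0.15 to -0.11.

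The mitotic genes of highest level per length were Top2a, Ube2c and Birc5. Top2a, the topoisomerase that untangles sister DNA, had 299, 323 and 322 CPM in CKO, against 322, 364 and 345 CPM in Rras2FF, and CKO replicates 2 and 3 lay just above Rras2FF replicate 1. Its log2 fold change was -0.13 (edgeR adjusted p = 0.212). Ube2c, a ubiquitin-conjugating enzyme of the anaphase-promoting complex, had 36.7, 43.99 and 44.5 CPM in CKO, against 38.7, 41.8 and 46.8 CPM in Rras2FF. Birc5, the survivin gene, had 40.1, 45.03 and 43.3 CPM in CKO, against 40.7, 46.1 and 44.7 CPM in Rras2FF. For Ube2c and Birc5 the groups were interleaved (log2 fold changes -0.025 and -0.035).

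Mki67, the widely used proliferation marker, had 361, 329 and 352 CPM in CKO, against 333, 384 and 379 CPM in Rras2FF, and the groups overlapped (log2 fold change -0.075, edgeR adjusted p = 0.563). CKO replicate 1 lay above Rras2FF replicate 1 for this gene. The mitotic kinase genes Cdk1, Plk1, Aurka, Aurkb, Bub1b and Ttk had log2 fold changes of -0.066, -0.13, -0.14, -0.17, -0.084 and -0.059. The cyclins Ccna2, Ccnb1 and Ccnb2 had -0.012, 0.03 and -0.079. The centromere genes Cenpe and Cenpf had -0.16 and -0.12, and Cdc20, the activator of the anaphase-promoting complex, had -0.08. The spindle genes Kif23, Nusap1, Prc1 and Hmmr had -0.03, -0.15, -0.085 and -0.085. Foxm1 and Mybl2, which encode the transcription factors of this programme, had -0.056 and -0.15, edgeR adjusted p = 0.671 and 0.492. Annotated pseudogenes are named for Ccnb1, Ccnb2, Ccnd3, Pcna and Tyms, so the counts of these genes are uncertain where such copies share reads. Further members share exon bases with genes on the opposite strand, and their counts are uncertain as well. Among them are Rfc2 (952 bases), Prc1 (911), Ccne2 (609), Ube2c (592), Ccna2 (510) and Cdkn1a (273).

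Replication and mitosis genes had medians close to each other, and they differed in how the single libraries fell. The median log2 fold change was -0.094 for the G1/S genes and -0.085 for the G2/M genes, and the difference was not tested. Summed over the 28 G1/S genes, the level was 1621, 1701 and 1637 CPM in CKO and 1723, 1811 and 1733 CPM in Rras2FF, without overlap. Over the 26 G2/M genes it was 1839, 1921 and 1931 CPM in CKO and 1915, 2102 and 2054 CPM in Rras2FF. Rras2FF replicate 1 thus lay among the CKO libraries for mitosis genes. The ratio of the G2/M sum to the G1/S sum was 1.15 ± 0.0277 in CKO and 1.15 ± 0.0374 in Rras2FF (SD, n = 3 each).

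The pattern by library was uneven. Rras2FF replicate 2 was above a gene's own mean in nearly every case, with 4 of the 60 genes below it, and 18 of 60 were below in Rras2FF replicate 3 and 30 of 60 in Rras2FF replicate 1. In CKO replicates 1, 2 and 3 the counts were 49, 36 and 43 of 60. Of the 26 mitosis genes, 22 were below their own mean in CKO replicate 1, 16 in each of the other CKO libraries, and 17, 1 and 3 in Rras2FF replicates 1, 2 and 3. Without Rras2FF replicate 1 the median log2 fold change was -0.13 for both groups of genes. Over all 60 genes the summed level was 4210.2, 4387 and 4309 CPM in CKO and 4487, 4746 and 4581 CPM in Rras2FF, highest in replicate 2 of each group and lowest in replicate 1. Neutrophil marker sums were likewise highest in replicate 2, with 555, 721 and 539 CPM in CKO and 622, 819 and 643 CPM in Rras2FF. Osteoclast marker sums were highest in replicate 1, with 1685, 1371 and 1316 CPM in CKO and 1497, 1088 and 1109 CPM in Rras2FF. The stromal and macrophage marker sums differed between the groups, as given above, though single stromal markers moved both ways. The part of any of these markers in the cell cycle values was not tested.

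**Figure D4:**
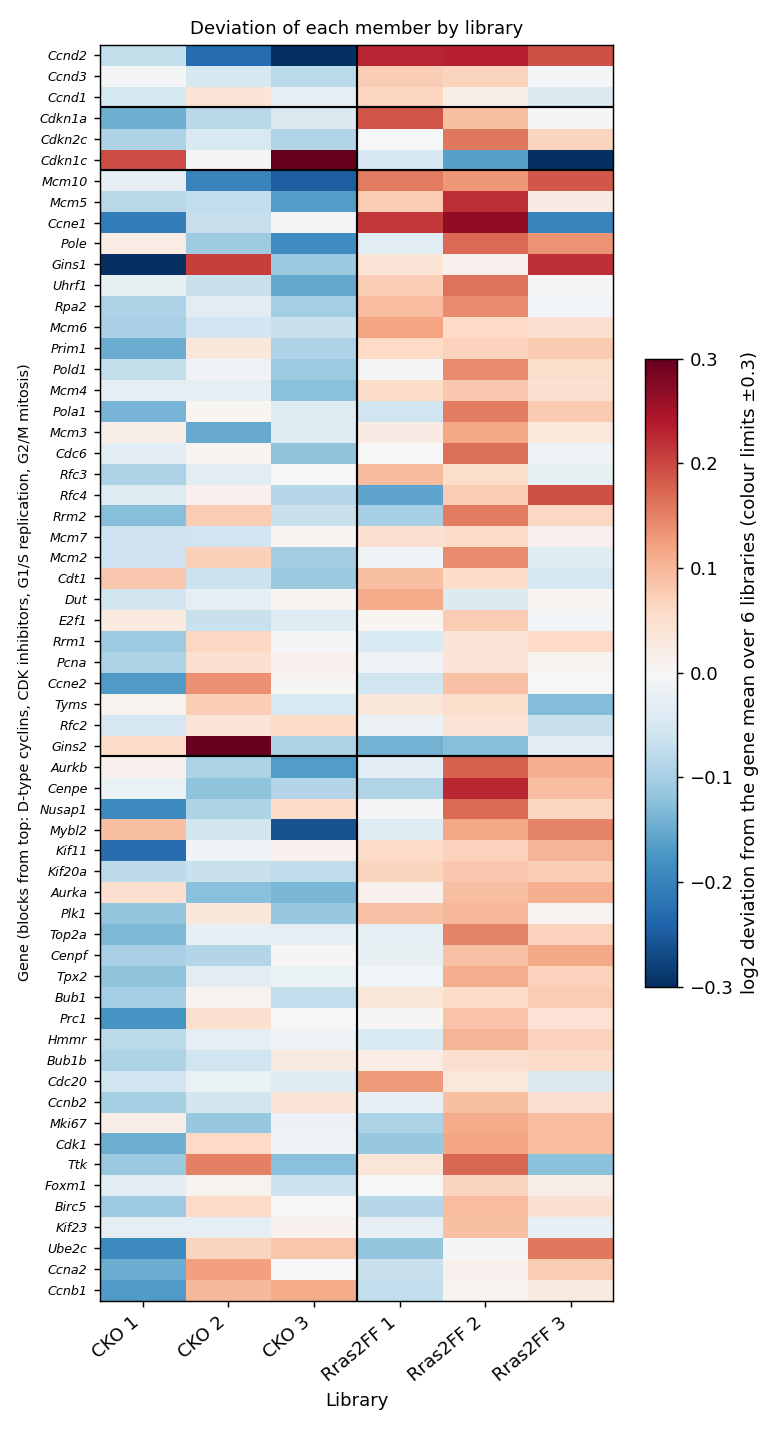
Log2 deviation of each gene from its own mean over the 6 libraries (colour, limits ±0.3), with libraries as columns (CKO left, Rras2FF right) and genes as rows in 4 blocks by role. Rras2FF replicate 2 is above the mean for 56 of the 60 genes, and Rras2FF replicate 1 is below the mean for 17 of the 26 mitosis genes.

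The promoter letters known for each programme were unevenly shared between replication and mitosis genes. The sequences are shown because replication genes are known targets of E2F and mitosis genes are known targets of the complexes that bind the CHR element. RefSeq promoter windows, 250 bases before to 50 after a start site on GRCm38.p6, were matched by symbol to 46 of the 60 genes. Both strands were searched for E2F letters (TTTGGCGC, TTTCCCGC, TTTCGCGC or TTTGCCGC), for CHR letters (TTTGAA or TTCGAA) and for the CCAAT box. An E2F match was found in 10 of 24 windows of G1/S genes (41.7%), in 1 of 22 windows of G2/M genes (4.55%) and in 2.26% of all 32851 windows. A CHR match was found in 3 of 24 windows of G1/S genes (12.5%), in 17 of 22 windows of G2/M genes (77.3%) and in 19.2% of all windows. The CCAAT box was in 66.7% of G1/S windows, 86.4% of G2/M windows and 37.4% of all windows. A match describes letters in the window and is not a measured binding site.

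**Figure D5:**
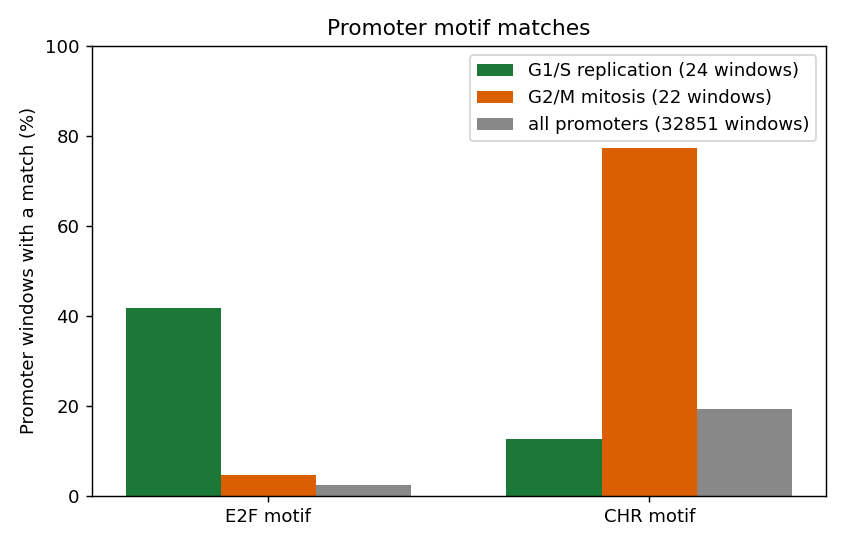
Share of promoter windows with a match (percent, y axis) to the E2F and CHR motifs, for G1/S replication genes (24 windows), G2/M mitosis genes (22 windows) and all 32851 RefSeq promoter windows. E2F matches are most frequent in replication genes (41.7%) and CHR matches in mitosis genes (77.3%).

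The windows of 4 genes are given 5′ to 3′ on the gene's strand, for the 2 replication genes and the 2 mitosis genes of smallest p that could be shown. Capitals mark E2F, CHR and CCAAT letters on either strand, and overlapping matches run together. They lie at chr2:5012742-5013041 (minus strand) for Mcm10, chr8:75109259-75109558 (plus strand) for Mcm5, chr11:99024140-99024439 (minus strand) for Top2a and chr19:37376132-37376431 (plus strand) for Kif11.
Mcm10: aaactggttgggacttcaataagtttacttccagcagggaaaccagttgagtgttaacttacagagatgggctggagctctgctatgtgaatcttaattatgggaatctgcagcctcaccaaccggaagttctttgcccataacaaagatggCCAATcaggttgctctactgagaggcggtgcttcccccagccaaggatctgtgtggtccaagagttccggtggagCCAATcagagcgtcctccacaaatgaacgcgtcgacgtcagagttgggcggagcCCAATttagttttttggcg
Mcm5: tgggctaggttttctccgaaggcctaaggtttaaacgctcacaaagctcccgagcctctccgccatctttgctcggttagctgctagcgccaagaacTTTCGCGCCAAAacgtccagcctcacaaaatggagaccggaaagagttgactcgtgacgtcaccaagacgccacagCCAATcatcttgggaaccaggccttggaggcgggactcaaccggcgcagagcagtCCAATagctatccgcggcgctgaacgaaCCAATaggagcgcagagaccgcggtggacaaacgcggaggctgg
Top2a: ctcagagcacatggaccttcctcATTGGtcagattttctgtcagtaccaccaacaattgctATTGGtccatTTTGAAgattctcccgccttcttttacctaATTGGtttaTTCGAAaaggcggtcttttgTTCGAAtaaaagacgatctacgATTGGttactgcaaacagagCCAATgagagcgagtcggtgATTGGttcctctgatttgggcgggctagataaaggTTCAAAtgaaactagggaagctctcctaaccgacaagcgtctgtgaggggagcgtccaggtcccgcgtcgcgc
Kif11: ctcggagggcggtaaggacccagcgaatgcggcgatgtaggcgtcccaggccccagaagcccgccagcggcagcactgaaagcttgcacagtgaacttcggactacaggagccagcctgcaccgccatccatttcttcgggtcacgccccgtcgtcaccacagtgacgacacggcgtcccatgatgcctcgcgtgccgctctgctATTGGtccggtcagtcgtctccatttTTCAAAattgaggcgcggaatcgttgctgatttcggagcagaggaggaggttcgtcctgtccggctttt
Mcm10, the replication gene with the most negative value, had 3 CCAAT boxes and no complete E2F match in this window. The window ended in TTTGGCG, which is TTTGGCGC without its last letter, and the base after it was not searched. In Mcm5 the letters TTTCGCGC began 153 bases before the start site and overlapped TTTGGCGC on the other strand, and 3 CCAAT boxes followed downstream. Top2a held 4 places with CHR letters and 6 CCAAT boxes on both strands. Kif11 held CHR letters 19 bases before the start site with 1 CCAAT box upstream.

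Log2 fold changes overlapped between genes with and without these letters. The 10 G1/S genes with an E2F match had a median log2 fold change of -0.12 and a range from -0.22 to -0.064. The 12 without a match had a median of -0.072 and ranged from -0.32 to 0.026. The lowest of them was Mcm10, whose window ended before a possible match was complete. Among G2/M genes the 16 with a CHR match had a median of -0.084, and the 5 without had -0.15. These are descriptions over few genes, and no test was made between them.

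Wider lists of the same pathways, all measured, held few or no called genes. Over all genes edgeR called 4.84%, limma-voom 5.04% and DESeq2 6.61%. Of 51 other replication genes 0 were called by edgeR or limma-voom and 1 by DESeq2 (Timeless, lower), and 9 were lower at an unadjusted p below 0.05 (17.6%, against 8.81% of all genes). Their median log2 fold change was -0.056, and 76.5% were negative. Dnmt1, the maintenance DNA methyltransferase, had 177, 171 and 177 CPM in CKO, against 195, 194 and 179 CPM in Rras2FF, with CKO below Rras2FF in every library (log2 fold change -0.11, edgeR adjusted p = 0.215). Slbp, the histone mRNA binding protein, had overlapping groups (log2 fold change -0.016). Of 60 other mitosis genes 0 were called by any of the 3 tools, with 5 lower and 1 higher at an unadjusted p below 0.05. These shares of 8.33% and 1.67% stand against 8.81% and 8.54% of all genes. Their median was -0.071, and 81.7% were negative. Stmn1, which destabilises microtubules, and Hmgb2, a chromatin protein, were the most abundant per length and had log2 fold changes of 0.076 and -0.018.

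Genes of G1 control and quiescence were split evenly by sign. Of 38 genes 1 rose and 1 fell, a share of 5.26% that was near the 4.84% of all genes called. Of the 38, 19 had negative and 19 positive values, and the median was 0.0047. E2f8, an atypical E2F that represses E2F targets, had 25.9, 23.8 and 27.2 CPM in CKO, against 30.6, 32.4 and 29.7 CPM in Rras2FF. It fell by 0.27 on the log2 scale (edgeR adjusted p = 0.0449). Plk2, a kinase induced by p53, had 41.1, 39.1 and 40.2 CPM in CKO, against 34.8, 35.1 and 31.8 CPM in Rras2FF and rose by 0.24 (edgeR adjusted p = 0.0449). In both genes the groups were separate, but the calls were near the threshold. The E2f8 call ended when CKO replicate 2 (adjusted p = 0.184) or CKO replicate 3 (0.0598) was left out, without Rras2FF replicate 1, 2 or 3 (0.110, 0.249 and 0.0885) and in the fit blocked by replicate number (0.0642). The Plk2 call ended without CKO replicate 1, 2 or 3 (0.0566, 0.0939 and 0.117), without Rras2FF replicate 1, 2 or 3 (0.103, 0.0954 and 0.168) and in the blocked fit (0.0557).

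Markers of other cells moved between the groups beside these genes. Of the macrophage markers 2 rose, Tyrobp and Mrc1, and 1 fell, Cd14 (edgeR), and of the stromal markers 2 rose and 3 fell. DESeq2 called 5 stromal markers lower, with Alpl and Sp7 added (log2 fold changes -0.66 and -0.70, edgeR adjusted p = 0.117 and 0.158). It called 3 macrophage markers higher, with Fcer1g added. Over all genes edgeR called 4.84% and DESeq2 6.61%. Of 4 measured B and plasma cell markers 3 rose, with sums of 295 to 357 CPM in CKO and 181 to 198 CPM in Rras2FF. None of 4 erythroid markers was among the listed genes. Endothelial sums were 25.6 to 32.1 CPM in CKO and 26.4 to 39.1 CPM in Rras2FF, and adipocyte sums were 92.4 to 101 CPM in CKO and 83.8 to 86.6 CPM in Rras2FF. Of the osteoclast markers 1 rose (Atp6v0d2), and of the adipocyte markers 1 rose (Adipoq). Of 7 neutrophil markers edgeR and limma-voom called 0, with 1 lower at an unadjusted p below 0.05 and 1 lower by DESeq2. Of 4 endothelial markers 0 were called by any of the 3 tools, with 1 lower at an unadjusted p below 0.05.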

How the data were processed

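The deposited table gave values per gene headed Count for 3 CKO and 3 Rras2FF libraries. These values were taken as raw counts, not normalized. Per the file headers it also gave FPKM (deposited, scaled by gene length and library size), used to compare levels between genes, and the authors' log2 fold changes and p-values. Libraries were made with a stranded mRNA kit from total RNA, per the labels' protocols, and the submitters' processing notes name the build mm10. A mean-abundance score per gene was deposited too and was not used. For the aligner, the counter and the strand setting, the sources used here give nothing. Genes under a mean count of 22.3, the lowest in the table, were not analysed. Of 51 rows listed by identifier alone, 45 were named from a gene name table. Gene positions are from GENCODE M21, of the same build.

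The test was that of edgeR 4.0.16 under R 4.3.3 (TMM, filterByExpr, robust quasi-likelihood F test, no covariates), with Benjamini-Hochberg adjustment over all 12830 genes. Filtering removed no gene. Intervals of 95% used the fitted degrees of freedom. The script was tested on simulated data with known changes. Alternatives were RLE, upper-quartile and no scaling, no filter, DESeq2 1.42.0, limma-voom (limma 3.58.1), the replicate number as a block and each library left out. Library pairs of a group differed by more than sampling noise. The members and lists were chosen with earlier results of these data known. Every member could be named, with values by library for called members, members whose groups do not overlap and the 3 of highest FPKM in each role group. Mcm2, Mki67 and Gins2 were added after their values were seen. In the other lists up to 4 called genes by smallest p were named, or the 2 of highest FPKM. Timeless, Alpl, Sp7 and Fcer1g were named as calls of DESeq2 alone. Deviations used log2 of CPM plus 0.5. Figures were drawn with matplotlib 3.10.9.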

Additional observations from a re-analysis of the deposited data

How the results depend on the processing

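With all 6 libraries, RLE scaling, upper-quartile scaling, library totals, no filter, limma-voom and the replicate block each called Ccnd2, Mcm10 and Mcm5 and no other of the 60 genes, and DESeq2, whose 848 calls are those of the authors' deposited table, added Mcm6 and Cdkn1a. Leaving out 1 library moved the counts most. Over all genes 270 were called higher and 351 lower, and without 1 library 107 to 535 and 161 to 631. For the G1/S genes 2 were called lower, and 0 to 3 without 1 library: 0 without CKO replicate 2, CKO replicate 3, Rras2FF replicate 1 or Rras2FF replicate 2, and 1 without Rras2FF replicate 3. Their median log2 fold change of -0.094 ran from -0.13 to -0.073, and that of the G2/M genes from -0.13 to -0.073. Of 780 refits of the 60 genes, 17 changed sign, all of them in 10 genes near 0 and all on leaving out a library. Their leave-one-out log2 fold changes ran from -0.052 to 0.018 for Pcna, -0.074 to 0.010 for Rrm1, -0.030 to 0.061 for Tyms, -0.092 to 0.062 for Ccne2, -0.081 to 0.056 for Ccna2, -0.019 to 0.12 for Ccnb1, -0.087 to 0.010 for Birc5, -0.051 to 0.012 for Kif23, -0.16 to 0.020 for Ttk and -0.089 to 0.060 for Ube2c. The cause was not tested. Over all genes, same-numbered libraries did not deviate together (correlations of -0.036, 0.091 and -0.099 for replicates 1, 2 and 3), so the numbers were not taken to pair the libraries. The sums of the 60 genes and of the neutrophil markers were, however, highest in replicate 2 of both groups. Osteoclast marker sums were highest in replicate 1 of both. Correlations over all genes do not settle whether the numbers pair the libraries for these genes. With the replicate block 282 genes were called higher and 387 lower, and the G1/S and G2/M medians were -0.093 and -0.086. With 3 libraries a group, the 95% intervals of 58 of the 60 genes lay within 0.5 of 0 on the log2 scale.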
